A study of Rattus norvegicus with 9 samples.

Results

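The 9 genes described here encode the chains of the fibrillar collagens I, III and V (Col1a1, Col1a2, Col3a1, Col5a1, Col5a2, Col5a3) and of the beaded-filament collagen VI (Col6a1, Col6a2, Col6a3). They were chosen by name, as probe sets whose only symbol in the platform annotation is one of these genes, and are 9 of the 14217 genes with a probe set of a single symbol on the array. Together they have 15 probe sets, and the brightest by mean log2 intensity over the 9 arrays represents a gene. The study measured gene expression in rat lung fibroblasts on postnatal day 2 (the saccular stage, before septation), day 7 (septation under way) and day 21 (septation over). Septation subdivides the large airspaces present at birth into alveoli. Each day was measured on 3 arrays, one per litter, and the cells of littermates were combined, 5 pups at day 2 and 4 at the later days. The cells were freshly dispersed with trypsin and collagenase and kept if they stuck to plastic within 45 min. The labels give no genotype, strain or treatment that distinguishes the groups. The number of pups in a pool differed between day 2 and the later days, and the labels do not say whether litters were the same across days.

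Collagens I and III form the bulk of the fibrils of lung interstitium. Collagen I is built mostly from chains of Col1a1 and Col1a2, and collagen III from Col3a1 alone. Collagen V is a minor fibrillar collagen that is built into the same fibrils, where it helps to start their assembly and limit their diameter. Most of it contains chains of Col5a1 and Col5a2, and the Col5a3 chain has a narrower tissue distribution. Chains of Col6a1, Col6a2 and Col6a3 assemble into collagen VI, which forms beaded filaments close to cells. Fibroblasts are the main source of all of these in connective tissue.

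By their representing probe sets, the chains of collagen V were the only ones among the 9 genes with a called change, so their promoters are shown first, with Col1a2 as a gene for which the representing probe set was not called. They are RefSeq sequences of build GRCr8, read 5′ to 3′ on the gene's strand and ending at the base before the annotated start, except for Col1a2, of which only the first 110 of these 250 bases are shown. RefSeq promoters were matched for 6 of the 9 genes. Capitals mark matches, on either strand, to the CCAAT box (searched as the letters of its name), to the GC box (searched as GGGCGG) or to the TATA box (searched as TATAAA), and no matches overlapped. The Col5a1 promoter lies at chr3:31606630-31606879 on the + strand, Col5a2 at chr9:55090152-55090401 on the - strand, Col5a3 at chr8:27625949-27626198 on the - strand and the Col1a2 stretch at chr4:33518307-33518416 on the + strand.
Col5a1: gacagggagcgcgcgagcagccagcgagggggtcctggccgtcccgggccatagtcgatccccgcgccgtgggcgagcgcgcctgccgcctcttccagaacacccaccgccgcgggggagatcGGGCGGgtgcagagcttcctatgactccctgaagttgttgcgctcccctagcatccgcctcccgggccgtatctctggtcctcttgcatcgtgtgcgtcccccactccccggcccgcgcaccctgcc
Col5a2: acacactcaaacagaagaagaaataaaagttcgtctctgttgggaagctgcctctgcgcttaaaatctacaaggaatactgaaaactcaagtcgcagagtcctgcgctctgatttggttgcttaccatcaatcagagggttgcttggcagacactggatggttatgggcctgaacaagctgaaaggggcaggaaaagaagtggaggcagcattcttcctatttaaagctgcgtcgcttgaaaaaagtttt
Col5a3: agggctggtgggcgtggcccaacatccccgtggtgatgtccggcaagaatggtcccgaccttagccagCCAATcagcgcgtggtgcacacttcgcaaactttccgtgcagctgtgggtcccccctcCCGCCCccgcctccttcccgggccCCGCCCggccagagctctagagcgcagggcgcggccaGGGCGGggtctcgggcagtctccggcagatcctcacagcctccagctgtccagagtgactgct
Col1a2: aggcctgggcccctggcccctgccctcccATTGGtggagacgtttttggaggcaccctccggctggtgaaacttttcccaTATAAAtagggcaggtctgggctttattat

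The 250 bases before the Col5a1 start held 1 GC box and no match to the other motifs. Those before Col5a2 held none of the 3 motifs. Those before Col5a3 held 3 GC boxes and 1 CCAAT box. The Col1a2 window held 1 CCAAT box and 1 TATA box, and the windows of Col6a1 and Col6a3 held none of the 3. Of all 33469 RefSeq promoters of this length, 34.02% held a CCAAT box, 30.47% a GC box and 12.93% a TATA box. The matches are a description of these letters and not of sites in use. In the same annotation Col3a1 and Col5a2 are neighbouring protein-coding genes on chromosome 9, and Col6a1 and Col6a2 are neighbours on chromosome 20.

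Array medians of intensity ran from 37.9 to 50.4, and with 3 arrays a day the precision is limited by their number. The 16 fibroblast markers averaged log2 9.70 to 9.92 on the day 2 arrays, 10.18 to 10.19 on day 7 and 9.03 to 9.35 on day 21. Each of them exceeded log2 4.25 on at least 1 array. That value is the 25th percentile over all arrays and is called the low end here. The 19 measured macrophage markers were also present. They averaged log2 9.43 to 9.65 on day 2, 7.76 to 8.60 on day 7 and 10.01 to 10.45 on day 21. Between days 7 and 21, 19 of the 19 macrophage markers rose and 9 of the 16 fibroblast markers fell (2 rose). The fibroblast markers Dcn, Lum, Fn1, Fbln1 and Loxl1 are also in the lists of collagen-related genes below, so these counts are not separate. In such bulk samples, fewer cells of a type and less RNA per cell cannot be told apart, and the part of other cells in the results below was not tested. The covariate fit given with them cannot test it, since the macrophage averages of the 3 days did not overlap. Calls are those of limma's moderated test across all 31042 probe sets at a Benjamini-Hochberg adjusted p under 0.05, errors are SEs from that fit unless marked SD, and all levels are log2 intensities.

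**Figure D1:**
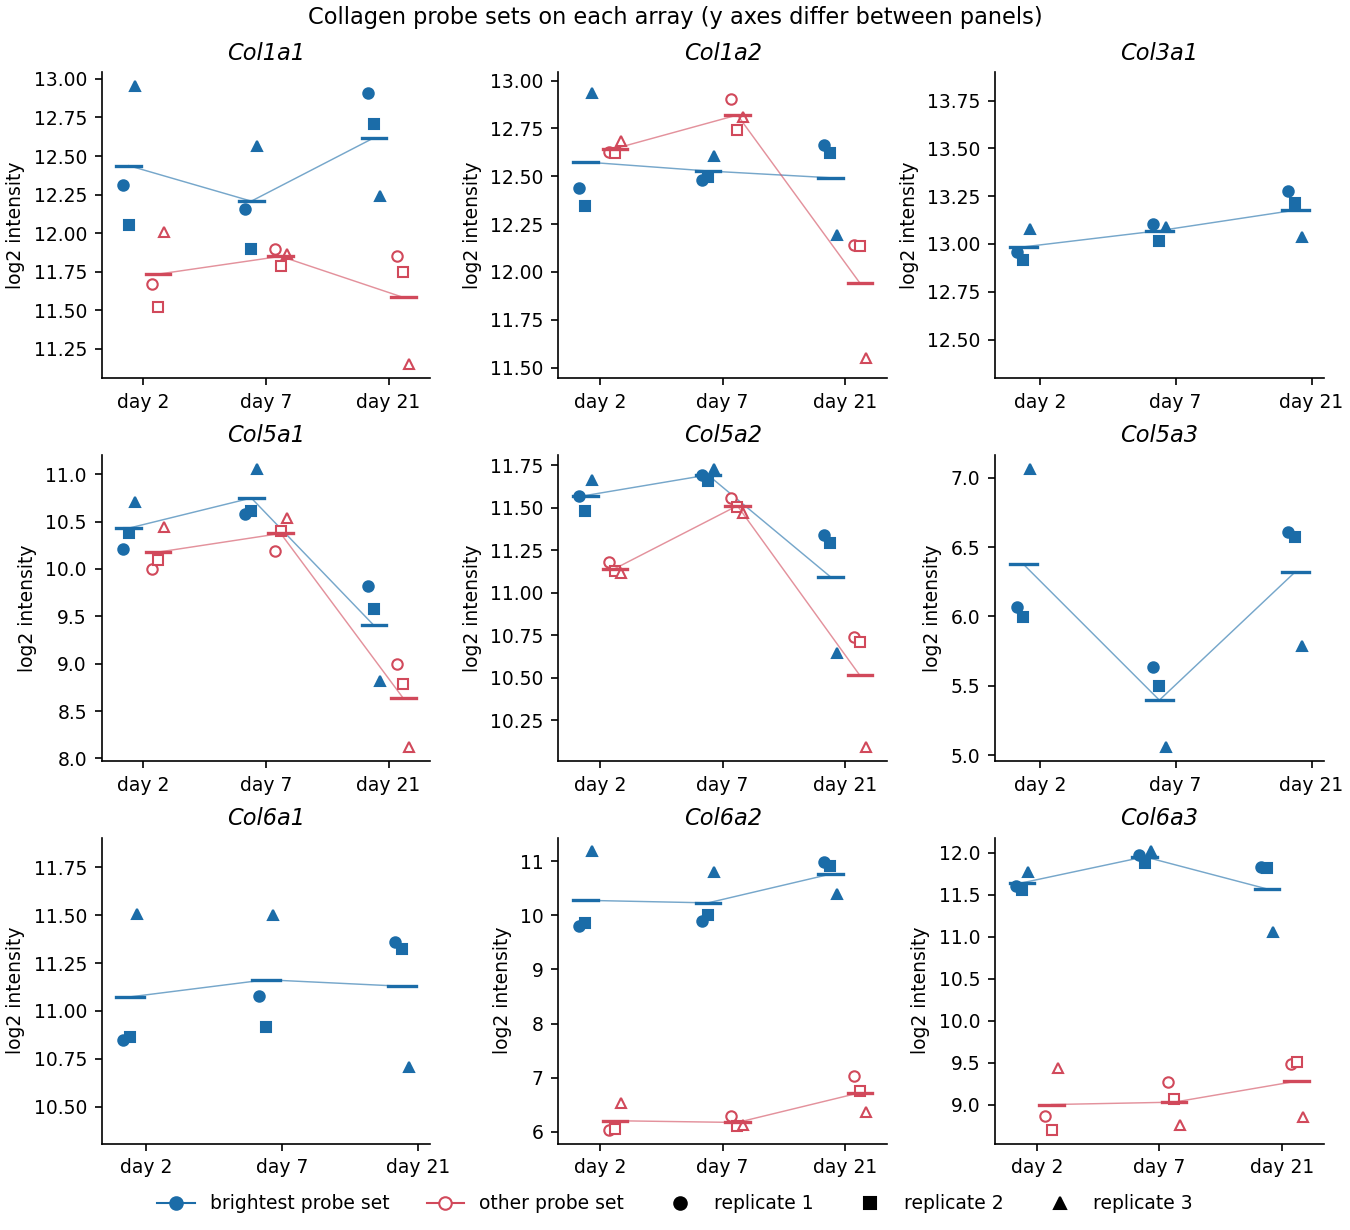
Log2 intensity (y axis) of the 15 probe sets on the 9 arrays by postnatal day (x axis), 1 panel per gene. Filled blue points are the brightest probe set, open red points the other one, shapes the replicates and bars the day means. The Col5a1 and Col5a2 points of day 21 all lie below those of days 2 and 7, Col5a3 is lowest on day 7, and the triangle of day 21 is the lowest day 21 point of every brightest probe set.

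Col5a1, the chain present in nearly all collagen V, fell after day 7. On replicates 1, 2 and 3 its brightest probe set (1376099_at) read 10.21, 10.38 and 10.70 at day 2, 10.58, 10.61 and 11.06 at day 7, and 9.82, 9.58 and 8.82 at day 21. All 3 day 21 arrays lay below all arrays of the earlier days, and days 2 and 7 overlapped. Between days 7 and 21 it was 2.54-fold lower (log2 change -1.34 ± 0.25, 95% CI -1.89 to -0.79, n = 3 arrays per day, limma adjusted p = 0.00146). Against day 2 it was 2.04-fold lower (-1.03 ± 0.25, adjusted p = 0.0146), a call that missed the threshold without day 2 replicate 3 (log2 change -0.89, adjusted p = 0.0535). Between days 2 and 7 the change was 0.32 ± 0.25 (95% CI -0.23 to 0.87, adjusted p = 0.538). Its other probe set (1369955_at) read 10.00, 10.09 and 10.44, then 10.19, 10.40 and 10.54, then 9.002, 8.78 and 8.12 in the same order, again with all day 21 arrays below the rest. It fell by 1.74 on the log2 scale between days 7 and 21 (adjusted p = 0.000103) and by 1.54 between days 2 and 21 (adjusted p = 0.000698).

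Col5a2, the usual partner of Col5a1 in collagen V, fell in the same interval by less. Its brightest probe set (1370895_at) read 11.57, 11.48 and 11.67 at day 2, 11.70, 11.66 and 11.73 at day 7, and 11.34, 11.30 and 10.65 at day 21. The day 21 arrays lay below all the others, with replicate 3 well under the other two. Between days 7 and 21 it was 1.52-fold lower (-0.60 ± 0.19, adjusted p = 0.0289). Without day 21 replicate 3 the change was -0.38 (adjusted p = 0.0994), and the call was also lost without any single day 7 array (adjusted p = 0.0634 to 0.0688). With arrays centred on their medians the change was -0.49 (adjusted p = 0.0997). Against day 2 it was 1.39-fold lower and did not pass (-0.48 ± 0.19, adjusted p = 0.097). The other Col5a2 probe set (1373463_at) read 11.18, 11.13 and 11.12, then 11.56, 11.51 and 11.47, then 10.74, 10.71 and 10.09 in the same order. It fell 2.00-fold between days 7 and 21 (limma adjusted p = 0.0011) and 1.55-fold between days 2 and 21 (adjusted p = 0.0297).

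Col5a3, the least widespread collagen V chain, moved the other way. Its single probe set (1368347_at) read 6.07, 5.997 and 7.06 at day 2, 5.63, 5.50 and 5.06 at day 7, and 6.61, 6.58 and 5.78 at day 21. The day 7 arrays lay below all arrays of both other days, and days 2 and 21 overlapped. Col5a3 read below the median of all probe sets on each day 7 array (5.66, 5.55 and 5.28 on replicates 1, 2 and 3). It rose 1.90-fold between days 7 and 21 (0.93 ± 0.30, 95% CI 0.26 to 1.59, adjusted p = 0.0373). The difference between days 2 and 7 was -0.98 ± 0.30 and did not pass (adjusted p = 0.0703). It did pass after quantile normalization of the deposited values (-1.02, adjusted p = 0.0343) and with arrays centred on their medians (-1.08, adjusted p = 0.0233). It passed too without day 21 replicate 3 (adjusted p = 0.0469). The rise was lost with log2 of the value plus 16 (0.73, adjusted p = 0.0669). It was lost too with the litter number as a replicate block. The call was also lost without day 7 replicate 2 or 3 or day 21 replicate 1 or 2 (adjusted p = 0.0664 to 0.126). Between days 2 and 21 the change was -0.05 ± 0.30 (adjusted p = 0.924).

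The collagen I genes gave no call with their brightest probe sets. Col1a1 (1388116_at) read 12.31, 12.05 and 12.95 at day 2, 12.16, 11.90 and 12.57 at day 7, and 12.91, 12.71 and 12.24 at day 21, so the 3 days overlapped. Its change was -0.23 ± 0.26 from day 2 to day 7 (95% CI -0.80 to 0.34, adjusted p = 0.696), and 0.41 ± 0.26 from day 7 to day 21 (95% CI -0.16 to 0.98, adjusted p = 0.28). The latter interval runs from 0.896-fold to 1.97-fold. Col1a2 (1370155_at) read 12.44, 12.35 and 12.94, then 12.48, 12.50 and 12.61, then 12.66, 12.62 and 12.19. Its changes were -0.05, -0.04 and -0.08 for day 7 against day 2, day 21 against day 7 and day 21 against day 2, each with an SE of 0.19. The 95% CI for day 21 against day 7 runs from 0.731-fold to 1.30-fold.

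Col3a1, the single chain of collagen III, had the smallest SE of the 9. Its probe set (1370959_at) read 12.96, 12.92 and 13.08 at day 2, 13.11, 13.01 and 13.09 at day 7, and 13.28, 13.22 and 13.04 at day 21. The changes were 0.08 ± 0.14 to day 7 (adjusted p = 0.808) and 0.11 ± 0.14 from there to day 21 (adjusted p = 0.625), and the day 21 against day 2 interval ran from 0.925-fold to 1.41-fold. The highest value of any probe set was log2 13.36 to 13.55 per array, so this gene was read close to the top of the scale on every array. The brightest probe sets of Col1a1 and Col1a2 reached 12.95 and 12.94. Whether readings in this upper range are compressed was not tested for these genes.

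The collagen VI genes gave no call on either probe set in any comparison. Col6a1 (1371349_at) read 10.85, 10.87 and 11.51 at day 2, 11.08, 10.91 and 11.50 at day 7, and 11.36, 11.32 and 10.71 at day 21. Its change was 0.09 ± 0.24 from day 2 to day 7 and -0.03 ± 0.24 from day 7 to day 21 (95% CI -0.56 to 0.49, adjusted p = 0.937). Col6a2 (1371369_at) read 9.80, 9.85 and 11.18, then 9.90, 10.00 and 10.80, then 10.996, 10.91 and 10.39. With an SD of 0.78 at day 2 it was the most variable of the 9 genes, and its change of 0.53 ± 0.36 between days 7 and 21 did not pass (adjusted p = 0.307). Without day 2 replicate 3 its change from day 2 to day 21 was 0.94 and passed (adjusted p = 0.0431). Its dimmer probe set (1376162_at) gave 0.55 ± 0.20 between days 7 and 21 (adjusted p = 0.0558). Col6a3 (1389966_at), the longest collagen VI chain, read 11.60, 11.55 and 11.77, then 11.97, 11.87 and 12.02, then 11.83, 11.82 and 11.05. The day 7 arrays were above all others for this gene, but neither the change to day 7 (0.31 ± 0.20, adjusted p = 0.439) nor that to day 21 (-0.38 ± 0.20, adjusted p = 0.192) passed. Its dimmer probe set (1396055_at) read 8.86, 8.70 and 9.44, then 9.27, 9.07 and 8.76, then 9.49, 9.50 and 8.85, with all 3 days overlapping.

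In the comparison of day 7 with day 2, 0 of the 9 genes and 0 of the 15 probe sets were called, and 1 of each was at an unadjusted p under 0.05. Over all probe sets 8.94% were called, and over all genes by their brightest probe set 7.02% were higher and 4.41% lower. That balance turned with the scaling: of the called genes 61.4% were higher as deposited, 55.0% after quantile normalization and 41.0% with arrays centred on their medians. The median change of the 9 genes was 0.08 and that of all genes 0.07. The arrays of both days did not overlap for 2 of the 9 genes, Col6a3 (higher) and Col5a3 (lower), against 33.0% of all genes.

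In the comparison of day 21 with day 7, 1 of the 9 genes was called higher (Col5a3) and 2 lower (Col5a1 and Col5a2), against 13.7% and 24.4% of all genes. Over the 15 probe sets 1 was higher and 5 were lower, in all 40.0% of them, against 30.1% of all probe sets. The share of members called is thus close to the background. The median change was -0.03, against -0.01 for all genes. The arrays did not overlap for 4 of the 9 genes, against 51.2% of all genes. Centring arrays on their medians moved the median change of all genes from -0.01 to 0.10 and the share of higher among called genes from 36.0% to 46.5%, and it was 47.9% after quantile normalization.

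In the comparison of day 21 with day 2, 0 of the 9 genes were higher and 1 was lower (Col5a1), against 8.80% and 15.3% of all genes. Of all genes called 36.5% were higher as deposited, 49.3% after quantile normalization and 40.9% with median centring. Of the 15 probe sets 4 were lower, 2 of Col5a1 and 1 each of Col5a2 and Col1a2, against 19.0% of all probe sets called in either direction. The arrays did not overlap for 2 of the 9 genes, Col5a1 and Col5a2, against 43.0% of all genes. The 3 comparisons share arrays, so their counts are not independent of each other. With the mean of the macrophage markers as a covariate no member was called in any comparison. The Col5a1 change from day 7 to day 21 was then 0.060 ± 0.77, and the same fit called 9 of all probe sets in that comparison. The macrophage averages of the 3 days did not overlap, so this fit cannot tell their part from that of day.

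**Figure D2:**
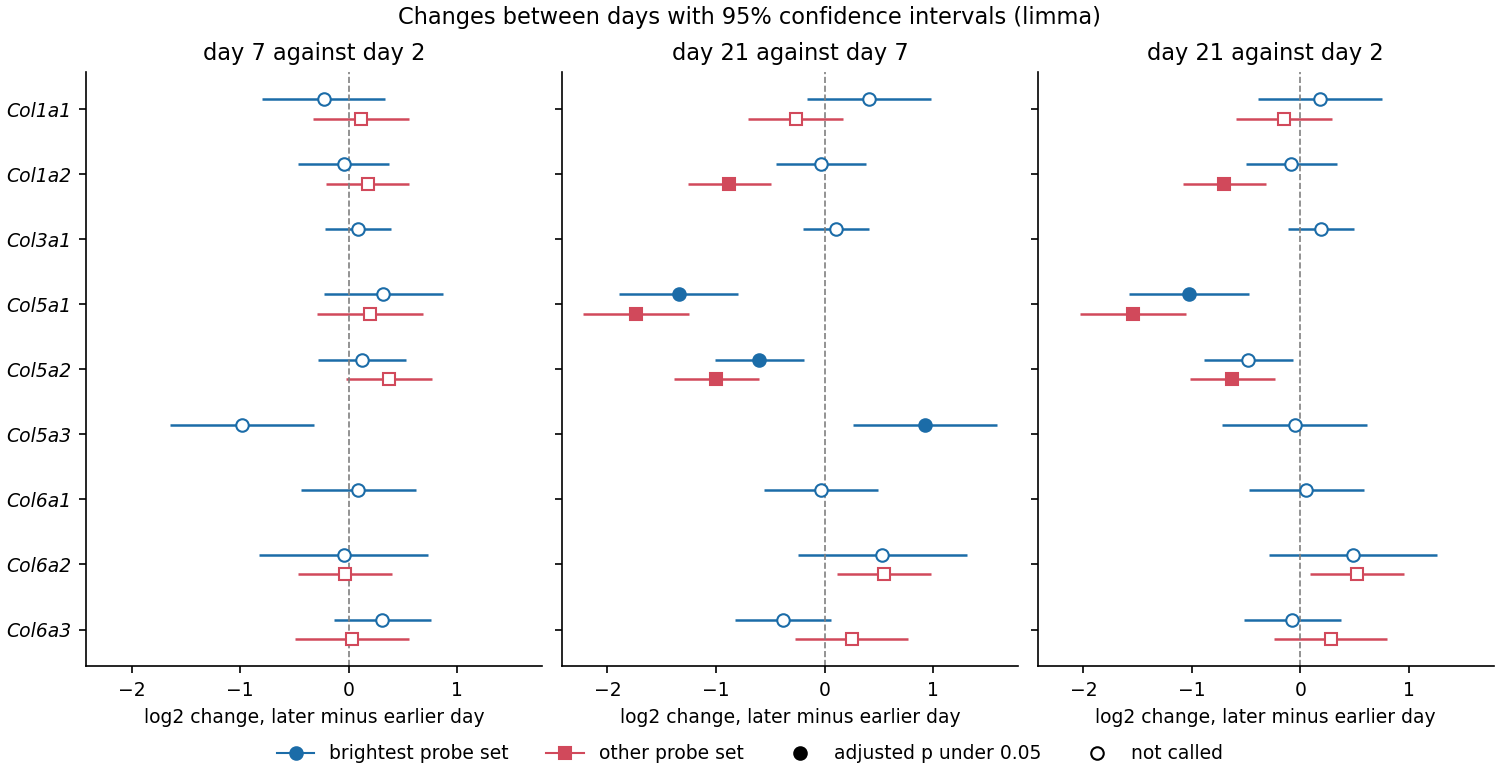
Log2 change (x axis) of each gene (y axis) in the 3 comparisons, with 95% confidence intervals from limma. Blue circles are the brightest probe set, red squares the other one, and filled symbols have an adjusted p under 0.05. Between days 7 and 21 the symbols of Col5a1 and Col5a2 are filled on the left of 0 and that of Col5a3 on the right, and the pair for Col1a2 is split, at -0.04 and -0.88.

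For 6 of the 9 genes the array has a pair of probe sets, and these did not always tell the same story. The Col1a2 pair were almost equally bright, so the choice of the brightest decides the call. Its other probe set (1387854_at) read 12.63, 12.62 and 12.68 at day 2, 12.91, 12.74 and 12.81 at day 7, and 12.14, 12.13 and 11.55 at day 21. All its day 21 arrays lay below all others, and it fell 1.84-fold between days 7 and 21 (-0.88 ± 0.17, adjusted p = 0.00219) and 1.63-fold between days 2 and 21 (adjusted p = 0.0155). Within each array the first minus the second Col1a2 probe set was -0.43 to -0.21 on day 7 and 0.49 to 0.64 on day 21. The other Col1a1 probe set (1370864_at) changed by -0.27 ± 0.20 between days 7 and 21, against 0.41 for the brighter one, and neither passed. An exact permutation test of the within-array difference across the 3 days, over all 1680 assignments of arrays to days, was made for the 6 genes after their values were seen. This exact test gave p = 0.0143 for Col1a2 (adjusted over the 6 genes 0.0286), p = 0.0107 for Col5a1 (0.0286) and p = 0.00357 for Col5a2 (0.0214), the last being the smallest this test can give. For Col1a1 the exact test gave p = 0.0464 (0.0643), for Col6a3 p = 0.0536 (0.0643) and for Col6a2 p = 1 (1). For Col5a1 and Col5a2 both probe sets fell and differed in size, whereas for Col1a2 a fall was called on a single probe set. Where the probe sets lie in the transcripts is not analysed here. The array also has control probe sets at the 3′ and 5′ ends of 2 transcripts. Their 3′ minus 5′ log2 difference for beta-actin was 0.51 to 0.80 on day 2, 0.71 to 1.18 on day 7 and 0.49 to 0.73 on day 21. For GAPDH it was -0.07 to 0.16, -0.11 to 0.25 and 0.11 to 0.24. The part of RNA quality in the probe set differences was not tested.

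**Figure D3:**
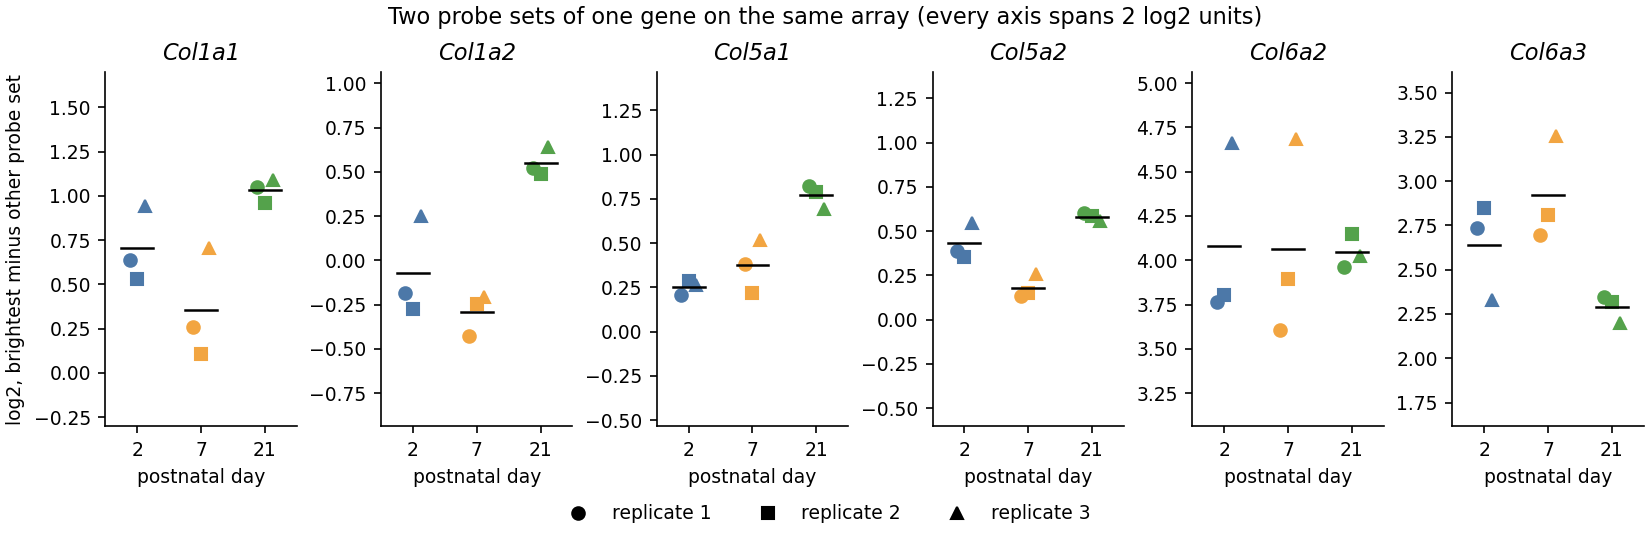
Difference in log2 intensity between the brightest and the other probe set of a gene on the same array (y axis, 2 log2 units in every panel) by postnatal day (x axis), for the 6 genes with a pair. Shapes are replicates and bars day means. For Col1a1, Col1a2, Col5a1 and Col5a2 the 3 arrays of day 21 sit above every array of days 2 and 7.

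Chains that join in a molecule or fibril were also compared with each other within an array, which asks whether a pair of genes changed unequally and not which is more abundant. Of 6 pairs, 1 passed the exact permutation test across the 3 days after adjustment over the 6 pairs. Col5a3 minus Col5a1 averaged -4.05 ± 0.38 (SD, n = 3) at day 2, -5.35 ± 0.57 at day 7 and -3.08 ± 0.12 at day 21 (exact permutation p = 0.00357, the smallest possible, adjusted 0.0214). The days did not overlap, and the difference moved by 2.27 between days 7 and 21. On day 7 Col5a3 read below the array medians, so this shift is against dim readings. Without day 21 replicate 2 or replicate 3 the adjusted p was 0.0643, with shifts of 2.23 and 2.24. Col5a2 minus Col5a1 went from 1.14 and 0.95 at days 2 and 7 to 1.69 at day 21 (exact p = 0.0179, adjusted 0.0536). Col5a1 thus went down by more than Col5a2 on these probe sets, but the difference missed the threshold. Col1a2 minus Col1a1 moved by -0.45 between days 7 and 21 (exact p = 0.0607, adjusted 0.121). For Col3a1 against Col1a1 and for Col6a2 and Col6a3 against Col6a1 the adjusted p was 0.418, 0.24 and 0.24. When the mean of a gene's probe sets was used, 4 of the 6 pairs passed, and with the dimmer probe set 5 of 6, so the number of unequal pairs rests on the probe sets used.

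**Figure D4:**
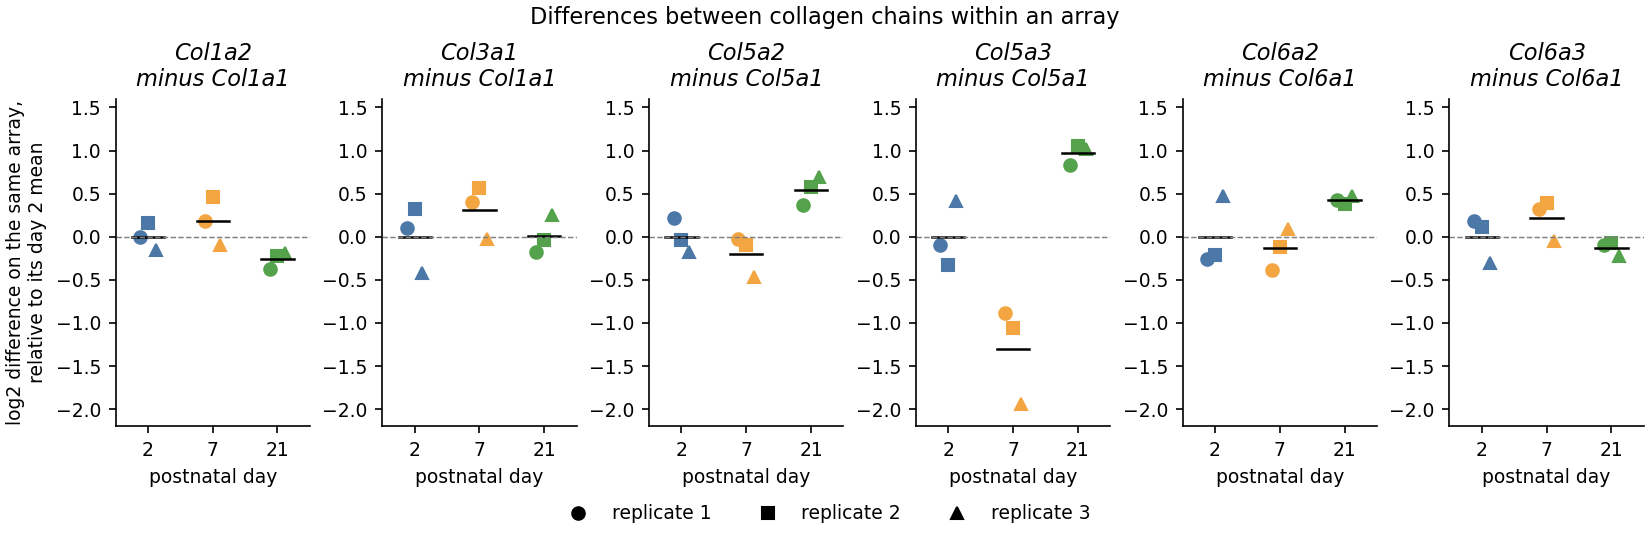
Difference in log2 intensity between a pair of collagen genes on the same array (y axis, relative to the day 2 mean of the pair) by postnatal day (x axis), for 6 pairs. Shapes are replicates and bars day means. Col5a3 minus Col5a1 drops by 1.30 at day 7 and stands 0.97 above its day 2 mean at day 21, while the other pairs move by less.

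On days 2 and 21 the same array was the extreme one for all 9 collagens, and on day 7 it was not. On day 2, replicate 3 was the highest array for 9 of the 9 genes, a position it held for 33.4% of all genes. On day 21, replicate 1 was the highest array for 9 of 9 (21.6% of all genes) and replicate 3 the lowest for 9 of 9 (36.8% of all genes). On day 7, replicate 3 was the highest array for 7 of 9 (34.6% of all genes) and the lowest for Col5a3, and replicate 2 was the lowest for 5 of 9. Over the 9 genes day 21 replicate 3 lay a median of 0.63 below the mean of the other two arrays (0.21 to 0.88), and day 2 replicate 3 a median of 0.54 above (0.14 to 1.36). The same arrays differed in other genes too. The fibroblast markers averaged 9.03 on day 21 replicate 3 against 9.33 and 9.35, and the macrophage markers 10.45 against 10.01 and 10.14. On day 2 replicate 3 the fibroblast markers averaged 9.92 against 9.70 and 9.78, and the macrophage markers 9.65 against 9.43 and 9.61. Their part in the position of these arrays was not tested. Without both arrays Col5a1 was still lower at day 21 than at day 7 by the call, but its change against day 2 was -0.59 (adjusted p = 0.107) and that of Col6a2 1.12 (adjusted p = 0.0293).

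By order of the day means, Col5a1, Col5a2, Col6a1 and Col6a3 were highest at day 7, Col1a1, Col3a1 and Col6a2 at day 21, and Col1a2 and Col5a3 at day 2. The highest and lowest day means were 2.54-fold apart for Col5a1, 1.97-fold for Col5a3, 1.52-fold for Col5a2, 1.45-fold for Col6a2, 1.33-fold for Col1a1, 1.30-fold for Col6a3, 1.14-fold for Col3a1 and 1.06-fold for Col6a1 and Col1a2. Between neighbours in this order a call was made for Col5a1 (day 21 below day 2) and Col5a3 (day 7 below day 21), and for no other neighbours. Without a call, the arrays did not overlap between days 21 and 2 for Col5a2 (adjusted p = 0.097) and between days 2 and 7 for Col6a3 (adjusted p = 0.439). The genes whose centred profile over the 9 arrays lay nearest to Col1a1, by root mean square difference, were Cluh (0.10 log2 units), Phc2, Lrrc47, Ppp4r1 and Hmgxb3 (0.15). Those nearest to the mean of the 3 collagen VI genes were Gbf1 (0.07), Dync1h1, Slc41a1, Eif4g1 and Lrp1 (0.09).

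The collagen I, III and VI genes gave no call on their representing probe sets between days 7 and 21. The other Col1a2 probe set, almost equally bright, did fall (-0.88 ± 0.17, limma adjusted p = 0.00219). Many genes that modify, process and crosslink collagen chains fell in the same interval. Lists of such genes were compared by counts, beside 13.7% of all genes higher and 24.4% lower in that comparison. Of 4 measured crosslinking oxidases, which oxidise lysines so that chains become joined, all 4 fell (median change -1.50). Loxl1 read 11.04 on average at day 2, 11.90 at day 7 and 9.80 at day 21, a rise of 0.86 ± 0.16 (adjusted p = 0.00702) and then a change of -2.10 ± 0.16 (adjusted p = 2.57e-06). Loxl2 (-1.68), Lox (-1.32) and Loxl3 (-0.93) fell in the same interval. Of 17 hydroxylases and folding factors of collagen chains, 9 fell and 1 rose (median -0.57). With arrays centred on their medians 7 fell and 1 rose by the call. P3h1 and P3h4, of the prolyl 3-hydroxylase family, changed by -1.71 ± 0.22 and -1.32 ± 0.27, the folding isomerase Fkbp10 by -1.62 ± 0.21 and the prolyl 4-hydroxylase subunit P4ha3 by -1.22 ± 0.17. Serpinh1, the collagen chaperone, changed by -0.84 ± 0.16 (adjusted p = 0.00146), and the prolyl 4-hydroxylase subunit P4ha1 was the gene that rose (0.64 ± 0.19, adjusted p = 0.0202). Both measured genes of propeptide removal fell, Pcolce, which enhances it, with a change of -1.24 ± 0.23 (adjusted p = 0.00117) and the protease Bmp1 with -0.99 ± 0.24 (adjusted p = 0.00762).

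Of 16 proteins that bind collagen fibrils, 9 fell and 3 rose. With arrays centred on their medians 7 fell and 3 rose by the call. Fmod (-1.92), Fn1 (-1.81) and Fbln1 (-1.67) fell, Prelp rose (1.47 ± 0.24, adjusted p = 0.000636), and Dcn, decorin, which binds collagen fibrils and was singled out after its value was seen, also rose (1.29 ± 0.27, adjusted p = 0.00301), as did Ecm1 (0.73). Of 8 receptors 3 fell and 0 rose by the call. Those that fell were the collagen-binding integrin subunit Itga1 (-2.17 ± 0.44), Antxr1 (-1.29 ± 0.16) and the proteoglycan Cspg4, which binds collagen VI (-0.74 ± 0.16). Of 11 collagen-degrading proteases and inhibitors 3 rose and 1 fell. Mmp13, the main interstitial collagenase of rodents, rose by 3.89 ± 0.27 (adjusted p = 1.36e-06) from a day 7 mean of log2 3.86, which is below the low end of 4.25. Mmp8 and Mmp9 rose by 0.66 each, the latter with levels below or near the low end on all days, and Mmp16 fell by 1.18. The macrophage markers rose in the same comparison, and their part in these values was not tested.

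The other collagens went in several directions. Of the 5 other fibrillar collagens, Col2a1 and Col11a1 of cartilage rose (5.07 ± 0.52 and 1.40 ± 0.44) and Col24a1 and Col27a1 fell (-1.40 ± 0.20 and -0.55 ± 0.15). After median centring of the arrays 3 of these 5 rose and 1 fell by the call. The day 7 mean of Col2a1, 4.37, lay near the low end of 4.25, so its difference is against dim readings. Of 9 fibril-associated collagens, Col9a1, Col9a3 and Col9a2 rose and Col16a1 and Col12a1 fell (-1.55 and -1.03). The day 7 means of Col9a1 and Col9a3, 3.54 and 3.74, lay below the low end of 4.25, and that of Col9a2, 4.29, lay at it, so the measured differences of 3.80, 3.24 and 1.93 are against dim readings. Beside these rises, 7 of 9 chondrocyte markers rose and 0 fell, and 3 of the 7 are Col2a1, Col9a1 and Col11a1 themselves. The 9 markers averaged log2 5.93 to 6.91 on the day 2 arrays, 4.20 to 4.71 on day 7 and 5.78 to 7.33 on day 21, and the part of cartilage cells was not tested.

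The same lists were counted between days 2 and 7, where 7.02% of all genes were higher and 4.41% lower. Of the 5 other fibrillar collagens, Col2a1 (-4.68) and Col11a1 (-2.01) fell and Col24a1 rose (1.15 ± 0.20, adjusted p = 0.00586). The day 7 mean of Col2a1 was 4.37, near the low end. Of 9 fibril-associated collagens Col9a1 (-5.09), Col9a3 (-4.05) and Col9a2 (-2.49) fell, to the same dim day 7 readings. Of 17 hydroxylases and folding factors Colgalt2 rose (0.78), of 8 receptors Antxr1 (0.69), and of the degrading enzymes Mmp13 (-2.07) and Mmp9 (-0.85) fell, both to day 7 means below the low end. Median centring of the arrays left 0 receptors called higher, and quantile normalization gave 2. For the 16 fibril-binding proteins limma made 0 calls, with 3 higher and 1 lower at an unadjusted p under 0.05. Between days 2 and 21, 8.80% of all genes were higher and 15.3% lower. In that comparison 3 of 4 crosslinking oxidases, 5 of 17 hydroxylases and folding factors and 9 of 16 fibril-binding proteins were lower, and 4 of the last group were higher. The oxidases were Lox (-1.54), Loxl2 (-1.46) and Loxl1 (-1.24). P3h1 (-1.48), P4ha3 (-1.22), Fkbp10 (-1.17) and P3h4 (-0.97) led the hydroxylases and folding factors. Of the fibril-binding proteins Fbln1 (-1.91), Fmod (-1.86) and Fn1 (-1.58) fell, and Prelp (2.14 ± 0.24), Dcn (1.17), Ecm1 (0.80) and Podn (0.78) rose. Of 9 fibril-associated collagens Col16a1 (-1.48) and Col14a1 (-1.28) fell, as did Pcolce (-1.23) of the 2 genes of propeptide removal. Of the 5 other fibrillar collagens limma called 0, and 0 were at an unadjusted p under 0.05. Of 8 receptors, Itga11, another collagen-binding integrin subunit, rose by 1.05 ± 0.20 and Antxr2 by 0.53, while Cspg4 (-0.61) and Antxr1 (-0.59) fell. Median centring left 1 receptor called higher and 1 lower. Mmp13 (1.82), Timp3, an inhibitor (0.78), and Mmp8 (0.68) rose and Mmp16 fell (adjusted p = 0.00243).

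**Figure D5:**
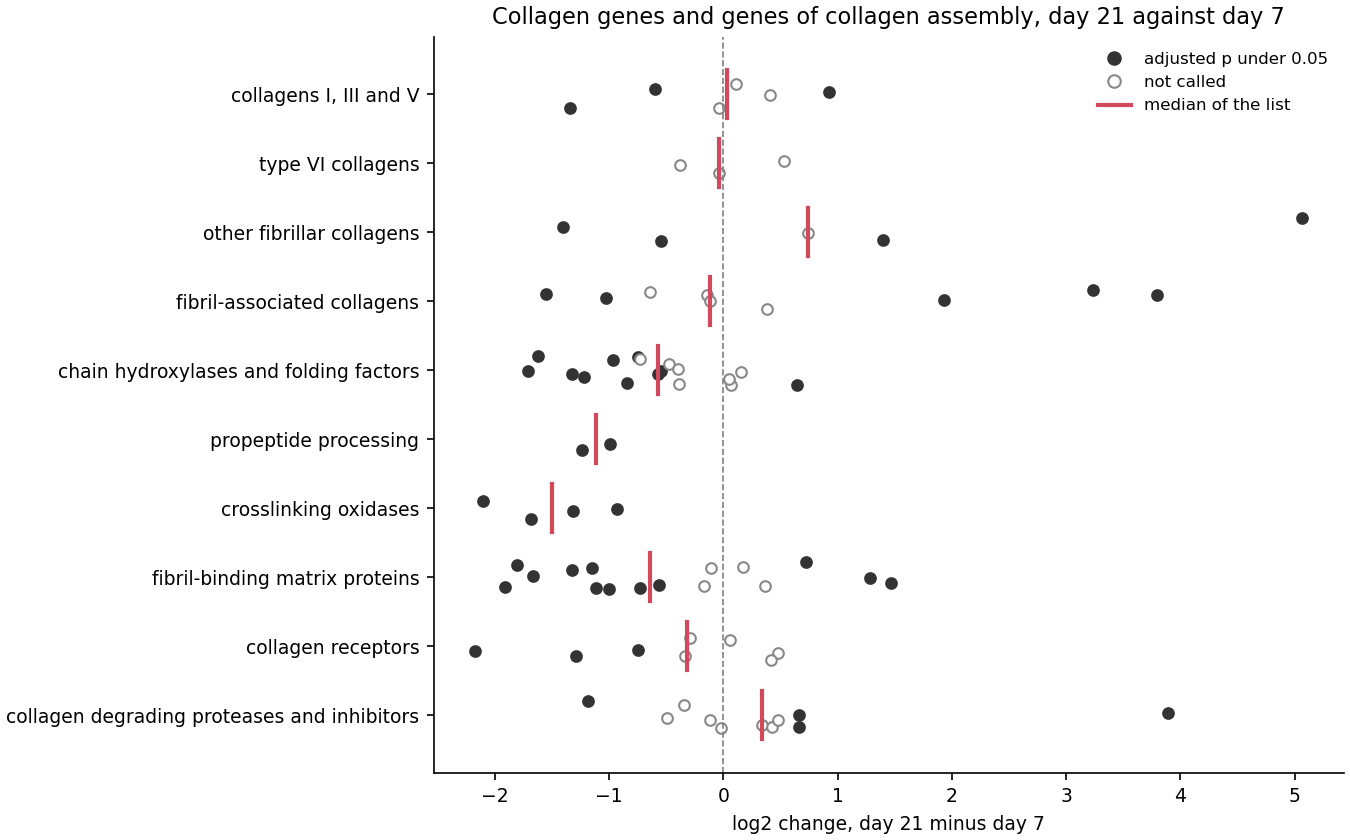
Log2 change from day 7 to day 21 (x axis) of the collagens described here and of genes for their assembly (y axis, 1 row per list). Each point is a gene, filled where the adjusted p was under 0.05, and red bars are list medians. The median is -0.03 for collagen VI and 0.04 for collagens I, III and V, while all 4 crosslinking oxidases lie left of 0 with a median of -1.50.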

How the data were processed

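RNA of 9 pools of adherent rat lung cells, 3 litters each on postnatal days 2, 7 and 21, was hybridised to single-colour Affymetrix arrays. The deposited values are intensities per probe set on a linear scale, and log2 was taken. The submitters' processing notes name affy and RMA, without versions. As usually run, RMA corrects background, quantile-normalizes the arrays and summarises probes. Array medians in the file were unequal, and whether that normalization was applied is not stated. A scaling by the authors beyond this is not stated either. Of 31099 probe sets, 57 AFFX controls were left out, and 31042 were tested with limma 3.58.1 in R 4.3.3 (a mean per day and no other term, two-sided, with 6 residual degrees of freedom per probe set and 5.69 from the prior, Benjamini-Hochberg adjustment over all probe sets within a comparison). No probe set was filtered. The p-values measure the spread between litters. Differences between chains or probe sets within an array were tested with an exact permutation test of the F statistic, adjusted over the pairs tested.

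Gene symbols came from the platform annotation. Probe sets with several symbols (436) or none (9780) were not named. The members and lists were chosen with earlier results of these data known, so counts over them are descriptions. The 20 lists hold the members, 8 groups of collagen genes and 10 groups of cell type markers. Of each collagen group and comparison up to 4 called genes with the largest change are named, beside all 9 members and the 5 nearest profiles of Col1a1 and of collagen VI. Serpinh1, P4ha1, Dcn, Ecm1, Podn and Col12a1, and the pairs of probe sets, were picked with their values in view. The remaining marker lists gave the following counts between days 7 and 21. Of 12 endothelial markers 10 fell, of 16 epithelial markers 6 rose and 3 fell, of 6 mesothelial markers 1 rose, and of 12 smooth muscle and pericyte markers 3 rose and 4 fell. Of 11 mast cell and granulocyte markers 8 rose, of 10 lymphocyte markers 2 rose, and of 4 erythroid markers 1 fell. The limma and permutation procedures were tested on simulated data. Alternatives were other scalings, an offset of 16, a filter at the 25th percentile, other ways to represent a gene, a litter block, other limma settings, a macrophage covariate and leaving out arrays.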

Additional observations from a re-analysis of the deposited data

How the results depend on the processing

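Of 513 values of the 9 members under the alternatives, 56 changed sign, called or not. By the threshold, 483 kept their side, 16 lost and 12 gained a call. The remaining 2, which had been called, changed sign and lost the call. Both were with the macrophage covariate, for day 21 against day 7, where Col5a1 gave 0.060 and Col5a2 0.10, and that fit called 0 members in that comparison and 0 in day 21 against day 2. Its SEs were larger (0.77 for Col5a1 against 0.25), and the covariate's ranges on the 3 days do not overlap. For day 7 against day 2 the members called were 1 (Col5a3) after quantile normalization, with arrays centred on their medians and with the mean of a gene's probe sets, and 0 to 1 when single arrays were left out. For day 21 against day 7 they were 1 to 3 without single arrays. For day 21 against day 2 they were 2 with the mean of a gene's probe sets and with trend and robust settings. They were 3 with the dimmer probe set, an alternative chosen after seeing the data. Under the 19 alternatives the calls over all features ran from 0 to 3255, 9 to 10513 and 1345 to 7182 in the 3 comparisons. For day 7 against day 2, 980 of all 14217 genes were higher and 803 lower after quantile normalization. With median centring these were 481 and 693. The member counts were not set against the share called in each fit. Of the 6 chain pairs, 2 passed after quantile normalization, 4 with the mean of a gene's probe sets, 5 with the dimmer probe set, 0 to 2 without single arrays and 0 without day 2 replicate 3 and day 21 replicate 3, also chosen after seeing the data. With the dimmer probe set the shift of Col3a1 minus Col1a1 from day 7 to day 21 was 0.37, against -0.30. The fits without arrays use fewer arrays. Samples with the same litter number correlated in their deviations at -0.24 to 0.41 over 9 pairs, and those with different numbers at -0.28 to 0.24. Between days 2 and 7 the same-number pairs gave 0.41, 0.08 and 0.22, above the different-number pairs (-0.28 to 0.06). The labels do not say that litters are shared across days, so the main fit did not pair them. Whether the numbers mark a shared litter or batch was not tested. With the litter number as a replicate block 0, 2 and 1 members were called in day 7 against day 2, day 21 against day 7 and day 21 against day 2, and Col5a3 missed the threshold in the second (adjusted p = 0.0583). Over all probe sets, the 2775 calls of day 7 against day 2 became 1523 to 1726 without day 2 replicate 2 or 3 or day 7 replicate 1 or 2, and 1808 without day 2 replicate 3 and day 21 replicate 3. With the covariate 0, 9 and 1345 were called in the 3 comparisons, against 2775, 9339 and 5891. With the mean of a gene's probe sets, which tests fewer features, 5725 and 3844 were called in the last pair of comparisons. Dim probe sets are limited by background, which bears on Col5a3 most.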

Other observations

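The array also measures chains of collagen VI that the rule does not include, and these are named here with their values in view. Col6a6 encodes a chain closely related to that of Col6a3. It read log2 6.42, 6.15 and 5.93 at day 2, 7.82, 7.32 and 8.19 at day 7, and 5.63, 5.59 and 4.80 at day 21. No arrays of different days overlapped. It rose 3.06-fold to day 7 (log2 change 1.61 ± 0.26, 3 arrays a day, adjusted p in limma = 0.00413) and fell 5.43-fold from there to day 21 (-2.44 ± 0.26, adjusted p = 3.02e-05). Col6a5, another such chain, read 6.60, 7.07 and 6.28, then 8.13, 7.82 and 8.61, then 8.14, 7.17 and 7.05. It rose 2.90-fold to day 7 (1.54 ± 0.31, adjusted p = 0.0101), and its change to day 21 did not pass (-0.73 ± 0.31, adjusted p = 0.0971). For Col6a3 neither interval was called, and the difference between these chains was not tested.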
